A study of Homo sapiens with 18 samples.

Results

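The mRNA of the cereblon ubiquitin ligase and of its drug-recruited substrates was followed across 3 human multiple myeloma cell lines in which IKZF1 or IKZF3 had been targeted or lenalidomide added. The 10 genes were chosen by symbol from the count table, which lists 28395 genes, and each had 1 row: the 5 ligase parts CRBN, DDB1, CUL4A, CUL4B and RBX1, and the 5 neosubstrates CSNK1A1, ZFP91, ZNF692, ZNF276 and GSPT1. All 10 passed the filter on low counts in every comparison, the lowest count of any of them in a library being 101 (ZNF692).

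Cereblon, encoded by CRBN, is the substrate receptor of a ligase in which DDB1 is the adaptor, CUL4A or CUL4B the cullin scaffold and RBX1 the RING subunit that holds the ubiquitin-loaded enzyme. Lenalidomide binds cereblon and turns its surface towards proteins that it does not otherwise take up, called neosubstrates, which are then ubiquitinated and degraded. In myeloma the zinc finger factors IKZF1 (Ikaros) and IKZF3 (Aiolos) are the best known of these, and loss of CRBN is a known route to resistance. The drug acts on protein, and the values here are of RNA, so they show how much template for each part was present and not how much protein was left.

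H929, MM1S and OPM2 are established myeloma lines. Cells of each line held either a CRISPR-Cas9 knockout of IKZF1 whose gRNA is switched on by doxycycline, or an empty vector, and OPM2 also had such a knockout of IKZF3; all of these received doxycycline at 1 µg/mL for 72 h. OPM2 cells given lenalidomide at 10 µM for 72 h were set beside OPM2 cells labelled as control and NT, called untreated here, and for these groups the labels name no vector, no doxycycline and no vehicle. Live cells had been sorted on light scatter before RNA was extracted. Each of the 9 groups had 2 libraries, 18 in all, so that p-values measure the spread between these libraries, which may be technical; the sources used here do not say whether the 2 knockout libraries of a group (called a and b) come from separate clones or guides.

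Libraries held 11.8 to 24.19 M counts. The 2 OPM2 empty vector libraries were unlike each other, with 1355 genes more than 2-fold apart, against 0 to 209 genes in the other pairs, and replicate 1 had the TMM factor furthest from its pair (0.8603, against 0.9806 in replicate 2). Tests that use this group are given with and without replicate 1 for the members; the merged log2 FPKM columns cannot be split. Leaving out either of the pair also takes that pair's spread out of the error that all comparisons share, and adjusted p moved in H929, MM1S and lenalidomide comparisons too. IKZF1 mRNA was not lower where IKZF1 had been targeted: it averaged 156 ± 45.1 CPM (counts relative to TMM-scaled library size) in H929 knockout cells and 124 ± 5.5 CPM in H929 empty vector cells, 323 ± 14.3 CPM in MM1S knockout cells and 182 ± 4.43 CPM in MM1S empty vector cells, and 219 ± 8.63 CPM in OPM2 knockout cells and 141 ± 66.3 CPM in OPM2 empty vector cells (SD, n = 2). IKZF3 mRNA averaged 68 ± 1.92 CPM in OPM2 IKZF3 knockout cells and 47.2 ± 4.48 CPM in OPM2 empty vector cells. Counts over a whole gene do not show whether a small deletion at a guide's cut site ended its protein. Of 9 plasma cell markers, SDC1, the syndecan CD138, ranged over 408 to 1970 CPM and TNFRSF17, the receptor BCMA, over 280 to 1550 CPM. CD38 fell lowest of the 9, with a range of 10.8 to 435 CPM. MS4A1, the B cell marker CD20, was at 0 in all 18 libraries. Single markers of other lineages were present. CD3E of T cells averaged 29.2 CPM in H929 knockout and 39.7 CPM in H929 empty vector cells. The other T and NK cell markers, CD3D, CD3G, CD2 and NCR1, reached 1.02 CPM at most in any library. KRT18 of epithelia averaged 29.3 and 21.3 CPM in the same H929 groups, and PECAM1 of endothelium 270 and 177 CPM. The rest of those 6 stromal and epithelial markers, COL1A1, COL1A2, PDGFRB and EPCAM, reached 1.82 CPM at most. In MM1S PECAM1 averaged 58 CPM with knockout and 6.24 CPM with empty vector. The summed B cell list (4 genes) reached 1.62 CPM at most and the myeloid list (5 genes) 2.57 CPM. The part of these genes in the results below was not tested.

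ZNF692 is the member whose mRNA differed most between groups and CRBN is the drug's own receptor, so the 250 bases before the start of each are shown, in the direction of transcription and from RefSeq on GRCh38.p14. The ZNF692 window lies on the minus strand at chr1:248859086-248859335 and the CRBN window on the minus strand at chr3:3179718-3179967. Capitals mark GGGAA, the core that Ikaros family zinc fingers are known to bind, or TTCCC, the same letters read on the other strand.
ZNF692: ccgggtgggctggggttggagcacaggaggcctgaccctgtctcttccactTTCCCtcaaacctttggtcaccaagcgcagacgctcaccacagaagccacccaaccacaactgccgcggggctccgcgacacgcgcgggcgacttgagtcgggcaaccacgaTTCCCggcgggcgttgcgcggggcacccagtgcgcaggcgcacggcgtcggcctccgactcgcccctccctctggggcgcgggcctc
CRBN: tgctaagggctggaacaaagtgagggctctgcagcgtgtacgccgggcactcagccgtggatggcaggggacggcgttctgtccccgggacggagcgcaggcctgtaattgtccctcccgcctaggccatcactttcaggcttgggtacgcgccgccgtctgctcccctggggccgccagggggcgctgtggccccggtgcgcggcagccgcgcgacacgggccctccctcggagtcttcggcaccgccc
The ZNF692 window held 2 matches, both as TTCCC, and the CRBN window held 0. Of the 20 windows listed for the 10 genes, some overlapping, 10 held a match, and 59% of all 35116 windows of 250 bases searched held at least 1. A match in letters is a description of the window and not a binding site.

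Per transcript length, the ligase was unevenly supplied: DDB1 mRNA stood far above CRBN mRNA in every group. In the authors' deposited log2 FPKM values, DDB1 was between 2.85 and 3.78 log2 units above CRBN over the 9 groups. In the merged empty vector columns, which carry no spread, the log2 FPKM level of CRBN was 3.39 in H929, 3.61 in MM1S and 3.0 in OPM2, and that of DDB1 was 6.62 in H929, 6.67 in MM1S and 6.45 in OPM2. The balance of the cullins, CUL4A minus CUL4B, varied between and within lines: it was -0.70 log2 units in H929 knockout and -0.15 in H929 empty vector cells, -0.01 in MM1S knockout and 0.25 in MM1S empty vector cells, and in OPM2 0.99 with IKZF1 knockout, 0.78 with IKZF3 knockout, 1.19 with empty vector, 0.50 with lenalidomide and 0.52 untreated. The OPM2 empty vector column merges both libraries, the unlike replicate 1 included. Among the neosubstrates CSNK1A1 and GSPT1 were at the top of the scale, and ZNF276 and ZNF692 at the bottom, with log2 FPKM levels of 1.36 and 0.84 in H929 empty vector cells.

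**Figure D1:**
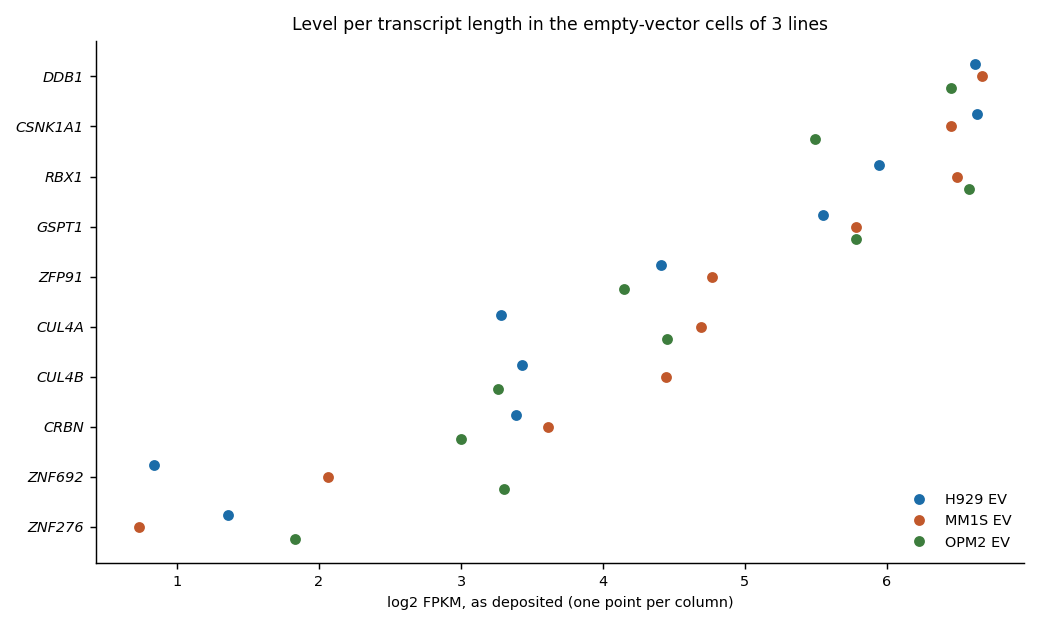
Level of each gene per transcript length (x axis, log2 FPKM as deposited) in the merged empty vector columns of H929, MM1S and OPM2, 1 point per line and no spread. DDB1, CSNK1A1, RBX1 and GSPT1 lie above 5.4 in all 3 lines, CRBN lies between 3.0 and 3.61, and ZNF692 runs over the widest range, with 0.84 in H929, 2.06 in MM1S and 3.30 in OPM2.

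Most of the 10 mRNAs did not pass the test in any 1 knockout or lenalidomide comparison, and the gene with the largest called changes was ZNF692. A gene was called where the quasi-likelihood test of edgeR over 14571 genes gave an adjusted p under 0.05, and the number of members called is set beside the share of all genes called. In H929 IKZF1 knockout against empty vector 0 of 10 were called, where 10.5% of all genes were; 3 had an unadjusted p below 0.05, and DESeq2 and limma-voom each called 1, DDB1. In MM1S the count was 1 of 10 against 28.2% of all genes. In OPM2 it was 3 of 10 for the IKZF1 knockout against 36.3%, and 4 of 10 for the IKZF3 knockout against 36.8%; these comparisons share their empty vector libraries. Under lenalidomide 0 of 10 were called against 10.3% of all genes, with 1 member, ZNF692, at an unadjusted p below 0.05 and 0 called by DESeq2 and by limma-voom. The libraries of the compared groups did not overlap for 7 of 10 members in H929, 7 in MM1S and 5 in the OPM2 IKZF1 knockout. The counts were 6 in the OPM2 IKZF3 knockout and 7 under lenalidomide. Such gaps were not counted over all genes, and the shares called are a stricter measure. These counts therefore say nothing particular to the members, and most of the gaps did not pass the test. Members were called no more often than other genes in 4 of these 5 comparisons, and in the OPM2 IKZF3 knockout at nearly the same share.

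With OPM2 empty vector replicate 1 left out, the counts were 4 of 10 in H929 (22.2% of all genes), 2 of 10 in MM1S (42.3%), 3 of 10 for the OPM2 IKZF1 knockout (21.2%), 2 of 10 for the OPM2 IKZF3 knockout (23.3%) and 1 of 10 for lenalidomide (21.9%). Leaving out OPM2 empty vector replicate 2 in its place gave 7 of 10 for each OPM2 knockout, where 53.4% (IKZF1) and 53.6% (IKZF3) of all genes were called. The median log2 fold change of the 10 was 0.01 in H929, 0.04 in MM1S, 0.01 for the OPM2 IKZF1 knockout, 0.05 for the OPM2 IKZF3 knockout and -0.03 under lenalidomide, and for all genes tested these medians lay between -0.03 and 0.0031.

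**Figure D2:**
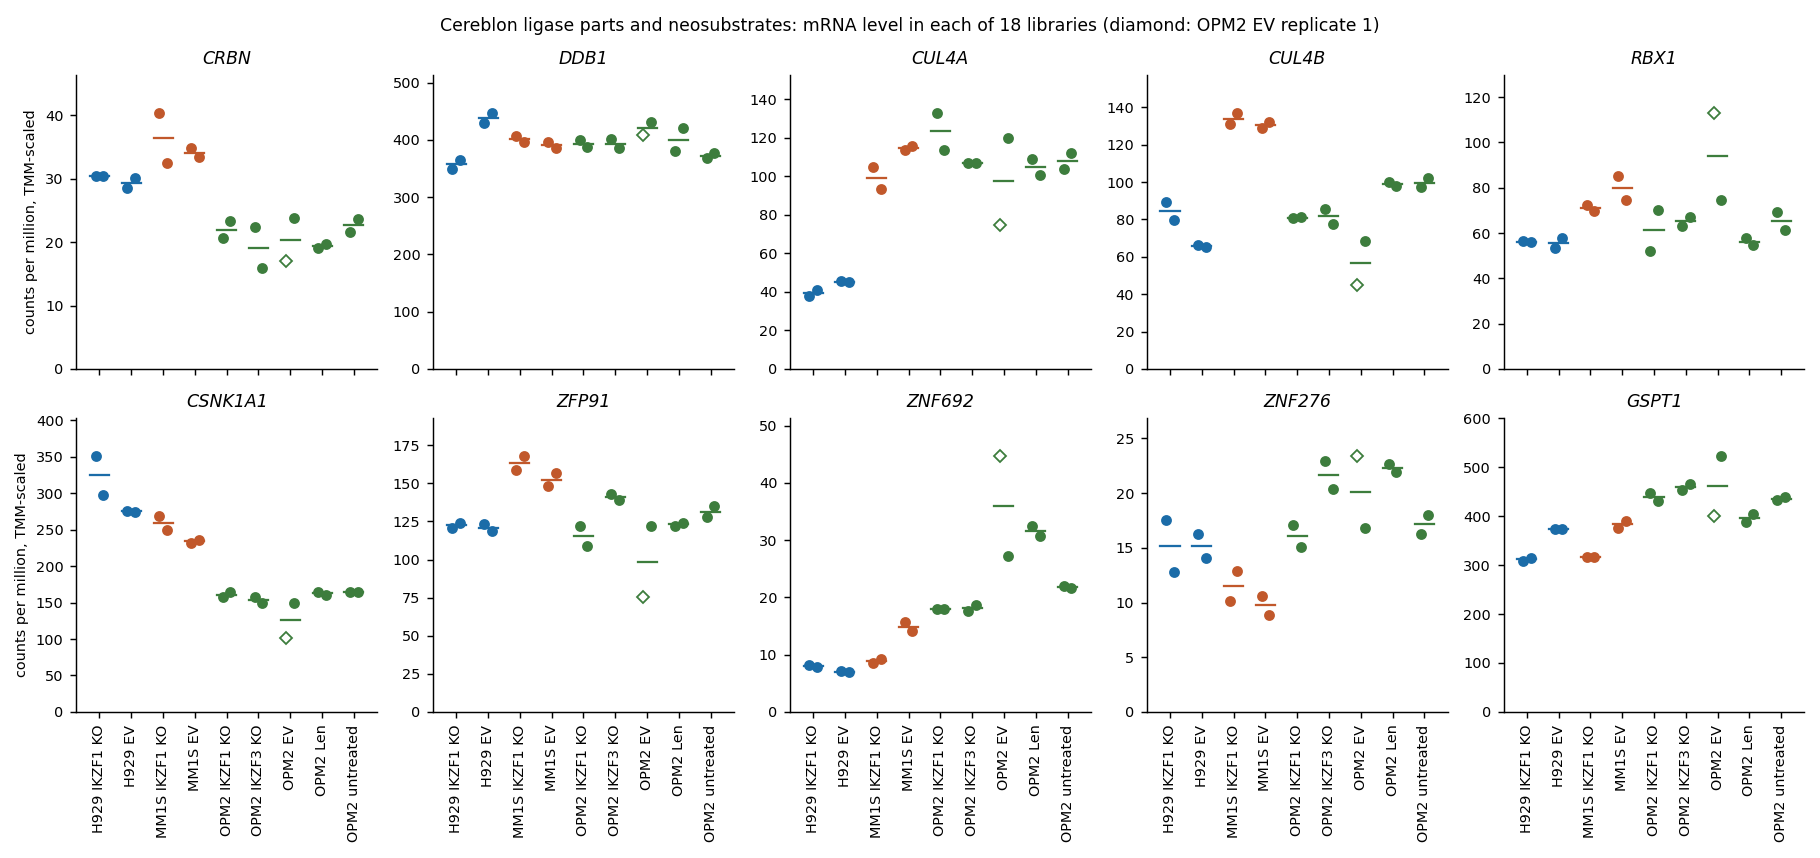
CPM, TMM-scaled (y axis, from 0), of each of the 10 genes in each of the 18 libraries, with a line at the mean of each group's 2 libraries and an open diamond for OPM2 empty vector replicate 1. CRBN lies lower in the OPM2 groups than in H929 and MM1S, CUL4A is lowest in H929, and ZNF692 is highest in OPM2 empty vector and lenalidomide libraries.

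CRBN mRNA, the receptor's transcript, differed between cell lines and was not called in any knockout or lenalidomide comparison with all libraries. It was at 30.5 and 30.4 CPM in H929 IKZF1 knockout libraries, against 28.6 and 30.2 CPM in H929 empty vector libraries. MM1S IKZF1 knockout libraries had 40.4 and 32.5 CPM, against 34.9 and 33.4 CPM in MM1S empty vector libraries. In both lines the differences were smaller than their standard errors, with log2 fold changes of 0.05 ± 0.18 in H929 and 0.09 ± 0.18 in MM1S (± SE).

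In OPM2, CRBN was at 20.6 and 23.4 CPM with IKZF1 knockout and 22.4 and 15.9 CPM with IKZF3 knockout, against 17 and 23.8 CPM with empty vector. These ranges overlapped, and the log2 fold changes were 0.10 ± 0.18 (adjusted p = 0.697) for IKZF1 and -0.11 ± 0.18 (adjusted p = 0.686) for IKZF3. Leaving out empty vector replicate 1 gave -0.08 (adjusted p = 0.805) and -0.30 (adjusted p = 0.223). After correction for transcript GC content and length CRBN was called lower in the IKZF3 knockout, at -0.51 (adjusted p = 0.00962), the only alternative of 12 in which it was. Lenalidomide libraries had 19.1 and 19.7 CPM of CRBN, against 21.6 and 23.7 CPM in untreated libraries. Both treated libraries lay below both untreated ones, but the log2 fold change of -0.22 ± 0.18 did not pass the test (adjusted p = 0.543).

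DDB1, the adaptor between receptor and cullin, was the steadiest member, its highest group mean being 1.23 times its lowest. It had 349 and 365 CPM in H929 IKZF1 knockout libraries, against 429 and 447 CPM in H929 empty vector libraries. These groups did not overlap; the log2 fold change of -0.30 ± 0.10 had an adjusted p of 0.0638, and of 0.00397 at the same log2 fold change without OPM2 empty vector replicate 1. In MM1S and OPM2 the DDB1 log2 fold changes on knockout and lenalidomide lay between -0.10 and 0.10 and none passed the test. The knockout effect on DDB1 in H929 differed from that in MM1S by -0.34 ± 0.13 log2 units (adjusted p = 0.109; -0.35 and 0.0101 without that library).

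Of the cullin scaffolds, CUL4A was not called in any knockout or lenalidomide comparison with all libraries, and CUL4B was called in both OPM2 knockouts. CUL4A was at 133 and 114 CPM in OPM2 IKZF1 knockout and 107 and 107 CPM in OPM2 IKZF3 knockout libraries, against 74.9 and 120 CPM in OPM2 empty vector libraries, where replicate 1 alone is low. CUL4B was at 80.7 and 81.1 CPM in OPM2 IKZF1 knockout and 85.8 and 77.4 CPM in OPM2 IKZF3 knockout libraries, against 44.8 and 68.6 CPM in OPM2 empty vector libraries. Both CUL4B knockout groups lay above both empty vector libraries.

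The CUL4B log2 fold changes were 0.51 ± 0.15 (adjusted p = 0.0184) with IKZF1 knockout and 0.52 ± 0.15 (adjusted p = 0.016) with IKZF3 knockout, and 0.27 (0.0493) and 0.28 (0.0368) without OPM2 empty vector replicate 1. Neither held without single knockout libraries: the IKZF1 call had an adjusted p of 0.0709 without library a and 0.0723 without library b, and the IKZF3 call 0.112 without library a. After the GC and length correction CUL4B was at 0.18 (adjusted p = 0.0953) and 0.19 (adjusted p = 0.0653), not called. The direction depended on the control: untreated OPM2 libraries had 97.4 and 102 CPM of CUL4B, above both knockouts, and against them the log2 differences were -0.30 (adjusted p = 0.269) and -0.29 (adjusted p = 0.283). Empty vector cells themselves were 0.81 ± 0.15 log2 units below untreated cells in CUL4B (adjusted p = 0.00197; -0.58 and 5.80e-04 without replicate 1). Lenalidomide gave 99.8 and 98 CPM, within the range of the untreated libraries. In H929 CUL4B was at 89.3 and 79.7 CPM with IKZF1 knockout, against 66.2 and 65.3 CPM with empty vector, a log2 fold change of 0.36 ± 0.15 that did not pass the test (adjusted p = 0.164) with all libraries and did without OPM2 empty vector replicate 1 (adjusted p = 0.00264).

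RBX1, the RING subunit, was called lower in both OPM2 knockouts, and neither call held without OPM2 empty vector replicate 1. It was at 52.2 and 70.2 CPM in OPM2 IKZF1 knockout and 63.1 and 67.2 CPM in OPM2 IKZF3 knockout libraries, against 113 and 74.7 CPM in OPM2 empty vector libraries. All 4 knockout libraries lay below both empty vector libraries, with replicate 1 of the empty vector far above the rest. The log2 fold changes were -0.61 ± 0.17 (adjusted p = 0.0144) for IKZF1 and -0.52 ± 0.17 (adjusted p = 0.0296) for IKZF3, and -0.25 (adjusted p = 0.195) and -0.16 (adjusted p = 0.427) without that library. The calls were also lost without IKZF1 knockout library a (0.154) and without IKZF3 knockout library a (0.15) or b (0.0812), and against untreated cells the log2 differences were -0.10 (0.821) and -0.01 (1). RBX1 had 57.7 and 54.7 CPM under lenalidomide, against 69.5 and 61.5 CPM in untreated cells; the groups did not overlap, and the log2 fold change of -0.22 ± 0.18 was not called (adjusted p = 0.523).

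**Figure D3:**
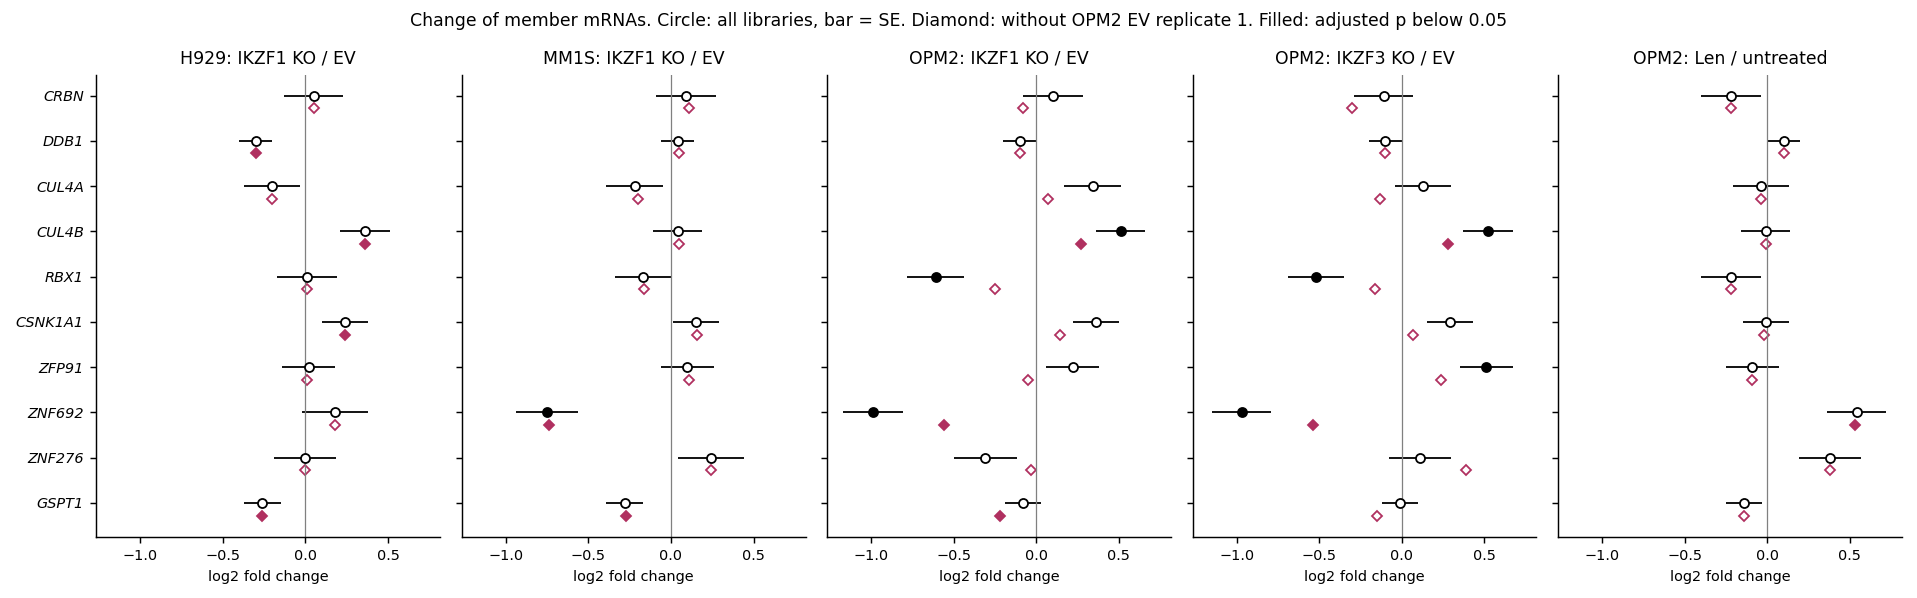
Log2 fold change (x axis) of each of the 10 genes in the 5 knockout and lenalidomide comparisons. Circles with bars are estimates ± SE from all libraries, diamonds are estimates without OPM2 empty vector replicate 1, and filled symbols have an edgeR adjusted p below 0.05. ZNF692 lies to the left in MM1S and in both OPM2 knockouts and to the right under lenalidomide (-0.75, -0.99, -0.97 and 0.54 log2 units).

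ZNF692, a zinc finger factor reported among the lenalidomide neosubstrates, fell with IKZF1 knockout in MM1S and OPM2 and with IKZF3 knockout in OPM2. It had 8.6 and 9.3 CPM in MM1S IKZF1 knockout libraries, against 15.7 and 14.1 CPM in MM1S empty vector libraries. The groups lay well apart, with a log2 fold change of -0.75 ± 0.19 (adjusted p = 0.00935). Its adjusted p was 0.0715 without MM1S empty vector replicate 1 and 0.0708 without MM1S knockout library a. In the same MM1S comparison 6 of 9 plasma cell markers were called higher, where 28.2% of all genes were called in either direction. The summed level of the 9 was 12400 to 12700 CPM with knockout and 7550 to 7690 CPM with empty vector. The part of these markers in the ZNF692 result was not tested. As in all bulk samples, less RNA per cell cannot be told apart from fewer cells that make it.

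In OPM2, ZNF692 was at 18 and 17.9 CPM with IKZF1 knockout and 17.7 and 18.7 CPM with IKZF3 knockout, against 44.7 and 27.2 CPM with empty vector. The 4 knockout libraries agreed closely and lay below both empty vector libraries, of which replicate 1 was by far the higher. The log2 fold change was -0.99 ± 0.18 (adjusted p = 0.00146) with IKZF1 knockout and -0.97 ± 0.18 (adjusted p = 0.00143) with IKZF3 knockout. Without replicate 1 these were -0.56 (adjusted p = 0.00367) and -0.54 (adjusted p = 0.00414), smaller and still called. Empty vector cells were above untreated cells, which had 22 and 21.6 CPM of ZNF692, by 0.71 ± 0.18 log2 units (adjusted p = 0.00731; 0.28 and 0.12 without replicate 1). Against untreated cells the knockouts were -0.28 (adjusted p = 0.415) and -0.26 (adjusted p = 0.441), of the same sign and not called; there 0 of 10 members were called in either, where 7.76% and 8.27% of all genes were. Fits of the compared groups alone gave ZNF692 -0.94 (adjusted p = 0.19) and -0.92 (adjusted p = 0.193), with 0 of 10 members and 0.929% and 0.419% of all genes called.

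Lenalidomide went with more ZNF692 mRNA, not less: 32.5 and 30.7 CPM in treated OPM2 libraries, against 22 and 21.6 CPM in untreated ones. Partners within each group differed little and the groups did not overlap. The log2 fold change of 0.54 ± 0.18 missed the threshold with all libraries (adjusted p = 0.0726). It was called at 0.00104 without OPM2 empty vector replicate 1 and at 9.22e-04 without replicate 2, which are in neither group, and at 3.02e-06 in a fit of the 2 compared groups alone, in which 4 of 10 members and 45.4% of all genes were called. Without any 1 of the 4 lenalidomide and untreated libraries the adjusted p was between 0.207 and 0.316.

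The direction of the ZNF692 change differed between drug and knockout in OPM2, each against its own control. Lenalidomide was set against untreated cells and the knockouts against empty vector cells, which were themselves 0.71 log2 units above untreated cells. That gap is part of both differences below and cannot be told apart from them. Fits of the compared groups alone called 0 of 10 members in either, beside 0% and 0.213% of all genes. The lenalidomide effect minus the IKZF1 knockout effect was 1.53 ± 0.25 log2 units (adjusted p = 0.0165), a comparison in which 1 of 10 members and 0.281% of all genes were called. The lenalidomide effect minus the IKZF3 knockout effect was 1.51 ± 0.25 (adjusted p = 0.00656), with 1 of 10 members and 6.6% of all genes called. Without OPM2 empty vector replicate 1 these differences were 1.10 (adjusted p = 0.00157; 1 of 10 members, 3.62% of all genes) and 1.08 (adjusted p = 0.00101; 1 of 10, 7.88%). The difference from the IKZF1 knockout was not called when any 1 of the knockout, lenalidomide or untreated libraries was left out, with adjusted p between 0.0507 and 0.115.

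In H929 ZNF692 was low throughout, at 8.1 and 7.8 CPM with IKZF1 knockout, against 7.1 and 7 CPM with empty vector. The groups did not overlap, but the log2 fold change of 0.18 ± 0.20 was within its error (adjusted p = 0.679). The IKZF1 knockout effect on ZNF692 in H929 exceeded that in MM1S by 0.92 ± 0.28 log2 units (adjusted p = 0.0357; 1 of 10 members and 15.9% of all genes called) and that in OPM2 by 1.17 ± 0.27 (adjusted p = 0.0152; 1 of 10 and 12.7%). Without OPM2 empty vector replicate 1 these were 0.91 (adjusted p = 7.42e-04; 3 of 10 members and 28.8% of all genes called) and 0.74 (adjusted p = 0.011; 1 of 10 and 12.4%). Neither difference was firm: that from MM1S was uncalled with any 1 of the H929 and MM1S libraries left out (adjusted p 0.0544 to 0.117), and that from OPM2 without H929 empty vector replicate 1 (0.0598) or 2 (0.0569) or H929 knockout library a (0.0531). Between MM1S and OPM2 the knockout effects on ZNF692 differed by 0.24 ± 0.26 (adjusted p = 0.545); there 0 of 10 members were called, where 20.7% of all genes were, with 2 members, CUL4A and CUL4B, at an unadjusted p below 0.05 and 0 called by DESeq2 or limma-voom. Without that library 0 of 10 were called there, where 20.5% of all genes were.

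**Figure D4:**
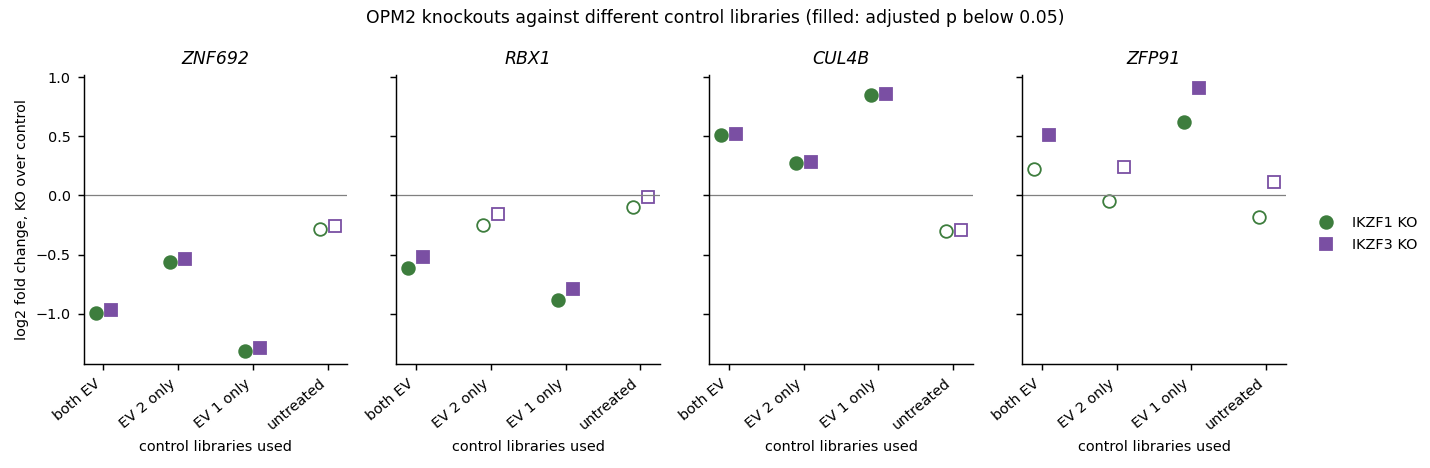
Log2 fold change (y axis) of ZNF692, RBX1, CUL4B and ZFP91 in the OPM2 IKZF1 knockout (circles) and IKZF3 knockout (squares), against both empty vector libraries, against each alone and against the untreated libraries. Filled symbols have an edgeR adjusted p below 0.05. ZNF692 is below 0 against all 4 controls, at -0.28 and -0.26 against untreated cells, while CUL4B lies above 0 against empty vector and below 0 against untreated cells.

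ZFP91, a zinc finger ubiquitin ligase of non-canonical NF-κB signalling and a lenalidomide neosubstrate, was called only in the OPM2 IKZF3 knockout among the knockout and lenalidomide comparisons. It was at 143 and 139 CPM in OPM2 IKZF3 knockout and 122 and 109 CPM in OPM2 IKZF1 knockout libraries, against 75.4 and 122 CPM in OPM2 empty vector libraries. Only the low empty vector replicate 1 separates the empty vector group from the IKZF1 knockout. The IKZF3 log2 fold change was 0.51 ± 0.16 (adjusted p = 0.023) and, without that library, 0.24 (adjusted p = 0.0579); it was also lost without IKZF3 knockout library a (0.103) or b (0.0709). ZFP91 in the IKZF1 knockout was 0.29 ± 0.16 log2 units below the IKZF3 knockout (adjusted p = 0.492; 0.0179 without that library). Between these knockouts 0 of 10 members were called, where 2.59% of all genes were, with ZNF276 at an unadjusted p below 0.05 and 0 members called by DESeq2 or limma-voom; without that library 1 of 10 was called (8.94% of all genes).

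CSNK1A1, the casein kinase 1 alpha of Wnt and p53 control and a lenalidomide target in myelodysplasia, was higher with IKZF1 knockout when the 3 lines were averaged. It had 351 and 298 CPM in H929 knockout libraries, against 276 and 274 CPM in H929 empty vector libraries. MM1S had 269 and 249 CPM with knockout, against 232 and 236 CPM with empty vector, and OPM2 had 157 and 164 CPM with IKZF1 knockout, against 102 and 149 CPM with empty vector. In each line both knockout libraries lay above both empty vector libraries.

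No single line passed the test for CSNK1A1 (adjusted p = 0.36 in H929, 0.491 in MM1S and 0.0672 in OPM2), and the mean log2 fold change over the 3 lines did, at 0.25 ± 0.08 (adjusted p = 0.0322). The mean was 0.18 (adjusted p = 0.00598) without OPM2 empty vector replicate 1, and 0.09 (adjusted p = 0.169) after correction for transcript GC content and length. Leaving out any 1 of 8 other libraries ended the call, with adjusted p up to 0.0972. Lenalidomide libraries had 164 and 161 CPM of CSNK1A1, against 164 and 164 CPM in untreated libraries, a log2 fold change of -0.01 ± 0.14.

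GSPT1, the translation termination factor eRF3a and the target of cereblon modulators other than lenalidomide, was lower with IKZF1 knockout when the 3 lines were averaged. It had 308 and 315 CPM in H929 knockout libraries, against 373 and 374 CPM in H929 empty vector libraries, and 317 and 316 CPM in MM1S knockout libraries, against 376 and 391 CPM in MM1S empty vector libraries. In both lines the groups lay apart by several times the gap between partners. OPM2 had 447 and 430 CPM with IKZF1 knockout and 454 and 466 CPM with IKZF3 knockout, against 401 and 523 CPM with empty vector, which bracket all 4.

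The GSPT1 log2 fold changes were -0.26 ± 0.11 in H929 (adjusted p = 0.182) and -0.28 ± 0.11 in MM1S (adjusted p = 0.0843), and neither was called with all libraries. Both were called without OPM2 empty vector replicate 1, at adjusted p of 0.0047 and 0.00195, and so was the OPM2 IKZF1 knockout, at -0.22 (adjusted p = 0.0391; -0.08 and 0.64 with it). After the GC and length correction GSPT1 was called lower in both OPM2 knockouts, at -0.58 (adjusted p = 1.78e-04) for IKZF1 and -0.50 (adjusted p = 4.57e-04) for IKZF3. The mean over the 3 lines was -0.21 ± 0.07 (adjusted p = 0.0262), and -0.25 (adjusted p = 5.77e-05) without that library. With all of its libraries, the averaged comparison called 4 of 10 members, CUL4B and CSNK1A1 higher and ZNF692 and GSPT1 lower, against 34.1% of all genes; without that library it called 5 of 10 (38.1%), with DDB1 lower as the added gene. The averaged CUL4B change was 0.30 ± 0.09 (adjusted p = 0.0157), and 0.23 without that library. The averaged ZNF692 change was -0.52 ± 0.11 (adjusted p = 0.00257), and -0.37 without it. Neither average stands for a change seen in all 3 lines. In MM1S the CUL4B change was 0.04 ± 0.15 (adjusted p = 0.906), and in H929 the ZNF692 change was 0.18 ± 0.20 (adjusted p = 0.679). Leaving out single libraries ended the averaged GSPT1 call in 8 cases, with adjusted p up to 0.0929, and ended neither the averaged CUL4B nor the averaged ZNF692 call.

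ZNF276, a zinc finger factor reported among the neosubstrates, was at 8.9 to 23.4 CPM and was not called in any knockout or lenalidomide comparison with all libraries. Under lenalidomide it had 22.7 and 21.9 CPM in treated libraries, against 16.3 and 18 CPM in untreated libraries, without overlap and 0.38 ± 0.19 log2 units apart (adjusted p = 0.259; 0.00118 in a fit of these groups alone). Between the OPM2 knockouts it was at 17.1 and 15.1 CPM with IKZF1 knockout and 22.9 and 20.4 CPM with IKZF3 knockout, a log2 difference of -0.43 (adjusted p = 0.341). The 3′ end of ZNF276 overlaps FANCA on the other strand, FANCA had 283 to 975 counts a library, and the sources used here do not say whether counting used strand, so some reads cannot be told apart. Among near copies of members, GSPT2 had 220 to 699 counts and CSNK1A1L 5 to 29 counts a library, and the readthrough gene ZFP91-CNTF had 0 in all 18.

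OPM2 empty vector cells, with vector and doxycycline, themselves differed from untreated OPM2 cells. Here 4 of 10 members were called, where 35.3% of all genes were: ZNF692 and RBX1 higher, CUL4B and CSNK1A1 lower. RBX1 was 0.51 ± 0.17 log2 units higher (adjusted p = 0.0333) and CSNK1A1 0.39 lower on the log2 scale, -0.39 ± 0.14 (adjusted p = 0.0498). With replicate 1 left out, the called members were 2 of 10 (20.6% of all genes): CUL4B, lower by the -0.58 given above, and GSPT1, higher at 0.23 (adjusted p = 0.0345). In replicate 1 relative to replicate 2 of the empty vector, 7 of 10 members were lower, from -0.08 log2 units for DDB1 to -0.70 for ZFP91, and RBX1, ZNF692 and ZNF276 were higher by 0.59, 0.72 and 0.47. The longest transcripts of ZNF692 and ZNF276 hold 58.7% and 58.5% GC, the highest of the 10, and those of CRBN and CUL4B hold 36.6% and 37.7%, the lowest; after correction for GC content and length the OPM2 changes of ZNF692 were -0.62 (adjusted p = 8.21e-04) with IKZF1 knockout and -0.61 (adjusted p = 7.73e-04) with IKZF3 knockout.

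Several members differed between cell lines, as most genes did. Between the empty vector cells of H929 and OPM2 6 of 10 members were called against 64.6% of all genes, between MM1S and OPM2 7 of 10 against 67.5%, and between H929 and MM1S 5 of 10 against 63.2%. Leaving out OPM2 empty vector replicate 1, they were 5 of 10 (63.2%), 7 of 10 (65%) and 8 of 10 (71.1%). These shares are at or near those of all genes, so they say nothing particular to the members. The OPM2 side is the empty vector group, and the lines were not tested against untreated OPM2 cells. ZFP91 averaged 131 CPM in untreated and 98.8 CPM in empty vector OPM2 cells, beside 153 CPM in MM1S empty vector cells. RBX1 averaged 65.5 and 93.7 CPM, beside 55.7 CPM in H929. For CUL4A the untreated OPM2 mean lay further from H929, at 108 and 97.4 CPM beside 45.4 CPM. CSNK1A1 averaged 164 CPM in untreated and 125 CPM in empty vector OPM2 cells, beside 275 CPM in H929 and 234 CPM in MM1S. ZNF276 averaged 17.1 and 20.1 CPM, beside 9.74 CPM in MM1S.

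CRBN was higher in both other lines than in OPM2, by 0.52 ± 0.18 log2 units in H929 (adjusted p = 0.0193) and 0.74 ± 0.18 in MM1S (adjusted p = 0.0021). With that group's replicate 1 left out these were 0.34 (adjusted p = 0.0853) and 0.56 (adjusted p = 0.00701), and the H929 call was also lost without H929 empty vector replicate 1 (0.05) or 2 (0.0878). In fits of the compared groups alone neither was called (0.123 for H929 and 0.0525 for MM1S). In order of group mean, MM1S knockout cells had 36.4 ± 5.62 CPM of CRBN, MM1S empty vector 34.2 ± 1.03, H929 knockout 30.4 ± 0.0829, H929 empty vector 29.4 ± 1.13, untreated OPM2 22.6 ± 1.51, OPM2 IKZF1 knockout 22 ± 1.97, OPM2 empty vector 20.4 ± 4.85, lenalidomide-treated OPM2 19.4 ± 0.453 and OPM2 IKZF3 knockout 19.1 ± 4.61 CPM (SD, n = 2). The 5 OPM2 groups each overlapped their next neighbour in that order, and none of their libraries reached the lowest H929 library.

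CUL4A set H929 apart: it was 1.10 log2 units lower in H929 than in OPM2, -1.10 ± 0.17 (adjusted p = 4.83e-05; -1.37 without OPM2 empty vector replicate 1), and the H929 difference from MM1S was -1.34 ± 0.17 (adjusted p = 7.71e-06). CUL4B set MM1S apart, at 1.2 ± 0.15 above OPM2 (adjusted p = 7.33e-06; 0.97 without that library), and H929 was -0.99 ± 0.15 from MM1S (adjusted p = 4.92e-05). Untreated OPM2 cells averaged 99.9 CPM of CUL4B, nearer to the 130 CPM of MM1S empty vector cells than the 56.7 CPM of OPM2 empty vector cells. CSNK1A1 was lowest in OPM2, with H929 higher by 1.13 ± 0.15 (adjusted p = 9.02e-06) and MM1S by 0.90 ± 0.15 (adjusted p = 7.14e-05); these were 0.91 and 0.69 without that library, and all 4 values without it were called. RBX1 in H929 was -0.75 ± 0.17 from OPM2 (adjusted p = 0.00164; -0.39 and 0.0164 without replicate 1) and -0.52 ± 0.17 from MM1S (adjusted p = 0.0169; 0.0991 without H929 empty vector replicate 1, 0.118 without MM1S empty vector replicate 1 and 0.0758 after the GC and length correction).

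ZNF692 had the widest span of the 10, with group means of 7.04 CPM in H929 and 35.9 CPM in OPM2 empty vector cells. It averaged 21.8 CPM in untreated OPM2 cells and 14.9 CPM in MM1S empty vector cells. Its log2 differences were -2.34 ± 0.19 for H929 against OPM2 (adjusted p = 7.29e-08), -1.26 ± 0.18 for MM1S against OPM2 (adjusted p = 2.21e-05) and -1.09 ± 0.19 for H929 against MM1S (adjusted p = 1.71e-04), and the first 2 became -1.91 and -0.82, both still called, without OPM2 empty vector replicate 1. ZNF276 in MM1S was -1.04 ± 0.20 from OPM2 (adjusted p = 2.89e-04; -0.75 and 0.00239 without that library), and H929 was 0.64 ± 0.20 above MM1S (adjusted p = 0.0112; 0.0839 without H929 empty vector replicate 1, 0.0964 without MM1S empty vector replicate 2 and 0.0609 after the GC and length correction). ZFP91 in MM1S was 0.63 ± 0.16 above OPM2 (adjusted p = 0.00322; 0.36 and 0.00172 without that library). GSPT1 was called lower than in OPM2 in both lines, at -0.31 ± 0.11 in H929 (adjusted p = 0.0284) and -0.27 ± 0.11 in MM1S (adjusted p = 0.0487), but neither call was firm. Without OPM2 empty vector replicate 1 the GSPT1 values were -0.45 and -0.41, both called; without replicate 2 they were -0.10 (adjusted p = 0.234) and -0.06 (adjusted p = 0.481), and leaving out either library of the other line also ended the call (0.102 to 0.29). DDB1 was not called by edgeR in the 3 line comparisons with all libraries, and in H929 against MM1S (0.17, adjusted p = 0.144) it was called by DESeq2 (0.0387) and in a fit of those groups alone (0.00139).

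**Figure D5:**
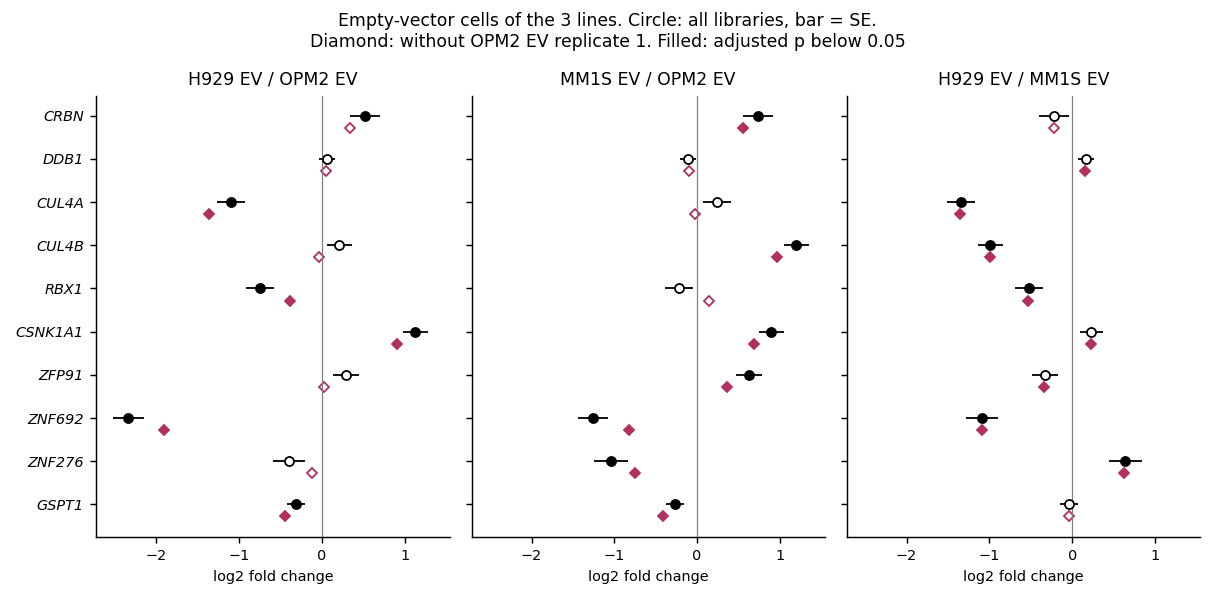
Log2 fold change (x axis) of each of the 10 genes between the empty vector cells of the 3 lines. Circles with bars are estimates ± SE from all libraries, diamonds are estimates without OPM2 empty vector replicate 1, and filled symbols have an edgeR adjusted p below 0.05. ZNF692 is far below 0 in both comparisons of H929, CUL4A is low in H929, and CSNK1A1 and CRBN are above 0 against OPM2.

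The enzymes that switch cullins on and off were read from a list of 24 genes of the COP9 signalosome and the NEDD8 pathway, all tested. In H929 IKZF1 knockout 0 of 24 were called by edgeR, and 1, lower, without OPM2 empty vector replicate 1. In MM1S 5 were higher and 4 lower, among them COPS8 and COPS7B of the COP9 signalosome (0.94 ± 0.12 and 0.81 ± 0.13 log2 units, adjusted p = 3.71e-05 and 2.91e-04), the NEDD8-conjugating enzyme UBE2F (0.98 ± 0.19, adjusted p = 0.00152) and DCUN1D2, lower at -0.64 ± 0.15 (adjusted p = 0.00533). Under lenalidomide 2 were higher, UBA3, a subunit of the NEDD8-activating enzyme (0.58 ± 0.13, adjusted p = 0.00977), and UBE2F (0.65 ± 0.20, adjusted p = 0.046), and 0 lower. In OPM2 5 were higher and 9 lower with IKZF1 knockout, and 4 and 10 with IKZF3 knockout; without OPM2 empty vector replicate 1 these were 2 and 3, and 3 and 5. The empty vector group that both share was itself shifted: against untreated cells 13 of the 24 were higher and 3 lower in it (median 0.41 log2 units), and 8 and 2 without replicate 1 (median 0.20). In all, 9 of 24 were called in MM1S, 14 in each OPM2 knockout and 2 under lenalidomide, beside 28.2%, 36.3%, 36.8% and 10.3% of all genes. The share of all genes was 10.5% in H929 and 35.3% for empty vector against untreated. Shares without OPM2 empty vector replicate 1 are given above. UBA3 was higher in both OPM2 knockouts with and without that library (0.63 and 0.66 with it, 0.48 and 0.52 without). Median log2 fold changes over the list were -0.07 in H929, 0.08 in MM1S, -0.25 for the OPM2 IKZF1 knockout, -0.18 for the OPM2 IKZF3 knockout and 0.02 under lenalidomide, beside the medians of all genes given above.

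Receptors that compete with cereblon for DDB1 and CUL4 were read from a list of 27, all tested. Called members were 0 in H929, 6 higher and 1 lower in MM1S, 7 higher and 4 lower in the OPM2 IKZF1 knockout, 6 and 3 in the OPM2 IKZF3 knockout, and 3 and 1 under lenalidomide, beside the shares of all genes given above. Against untreated cells 5 of the 27 were higher and 10 lower in OPM2 empty vector cells, where 35.3% of all genes were called. Shares of all genes without OPM2 empty vector replicate 1 are also given above. Without OPM2 empty vector replicate 1 the counts of the knockouts and lenalidomide were 3 and 1, 11 and 5, 4 and 2, 7 and 2, and 5 and 5. DCAF6 was higher in OPM2 with IKZF1 knockout (0.80 ± 0.12, adjusted p = 5.33e-04), IKZF3 knockout (0.75 ± 0.12, adjusted p = 6.33e-04) and lenalidomide (0.82 ± 0.12, adjusted p = 4.13e-04), and at 0.71, 0.67 and 0.82 without OPM2 empty vector replicate 1 it was still called. DCAF4 was lower with OPM2 IKZF1 knockout (-1.08 ± 0.14, adjusted p = 2.23e-04; -0.88 without that library) and with lenalidomide (-0.77 ± 0.14, adjusted p = 0.00286). WDR26, a subunit of the CTLH ligase also listed as a DDB1 partner, was higher in MM1S (0.82 ± 0.16, adjusted p = 0.00129), and TRPC4AP and DCAF8 were higher under lenalidomide (0.40 and 0.36 log2 units).

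Of 18 other proteins reported as neosubstrates, 15 were tested. In H929 1 was called, ZNF827 (0.97 ± 0.22, adjusted p = 0.00842), in MM1S 1, the prenyl-binding PDE6D (1.13 ± 0.13, adjusted p = 2.20e-05), and under lenalidomide 1, the RING protein RNF166 (0.56 ± 0.15, adjusted p = 0.0309), all higher. The OPM2 IKZF1 knockout had 3 higher and 4 lower, and the IKZF3 knockout 5 and 3; without OPM2 empty vector replicate 1 these were 1 and 0, and 4 and 0. Against untreated cells 2 of the 15 were higher and 5 lower in OPM2 empty vector cells, ARID2 among the lower (-0.95 ± 0.21, adjusted p = 0.00455). Shares of all genes called were 10.5% in H929, 28.2% in MM1S, 10.3% under lenalidomide and 35.3% for empty vector against untreated. They were 36.3% and 36.8% in the OPM2 IKZF1 and IKZF3 knockouts, and those without OPM2 empty vector replicate 1 are given above. ARID2, a subunit of a SWI/SNF remodelling complex, was higher in both OPM2 knockouts (0.84 and 1.24 log2 units, and 0.46 and 0.86 without that library). Among proteins that cereblon binds without drug, GLUL, the glutamine synthetase, fell in H929 by 1.77 on the log2 scale (-1.77 ± 0.19, adjusted p = 8.17e-05), to 2.1 ± 0.566 CPM in knockout cells, against 7.17 ± 0.0333 CPM in empty vector cells (SD, n = 2). Of 10 conjugating enzymes and partners of CUL4 ligases, the deubiquitinase USP15 was the only one called in H929, higher at 0.93 ± 0.15 (adjusted p = 6.47e-04), and it was also called higher in the OPM2 knockouts (0.50 ± 0.15, adjusted p = 0.0157, and 0.51 ± 0.15, adjusted p = 0.0148), of which the IKZF3 call held without OPM2 empty vector replicate 1 (0.31, adjusted p = 0.0457) and the IKZF1 call did not.

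Ranked by Pearson correlation of their 9 group means of log2 CPM with those of CRBN, among 11637 genes, the genes nearest to CRBN were ZFP69 (r = 0.987), PERP (r = 0.982), APOBEC3D (r = 0.981), ANXA6 (r = 0.980) and SCNN1B (r = 0.980). Over the same 9 means, CSNK1A1 had r = 0.86 with CRBN, ZNF276 r = -0.93, GSPT1 r = -0.82 and ZNF692 r = -0.79, and DDB1 r = -0.07. The 5 genes nearest to CRBN were near the floor in OPM2, where no group mean of theirs exceeded 2.51 CPM (APOBEC3D, untreated). The highest CRBN group mean was 1.91 times its lowest. The correlations describe 9 points that fall mostly by cell line and share libraries, and carry no test.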

How the data were processed

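The authors deposited raw read counts per Entrez gene, 1 column per library, and log2 FPKM values per gene, in which each control group is merged into 1 column. Subread, featureCounts and limma on GRCh38 are named per the submitters' processing notes, and versions and settings were not given in the sources used here. The 385 genes without a symbol took 0.0122% to 0.0276% of a library's counts and were kept under their Entrez numbers. Knockout columns carry other numbers than the sample titles and were assigned to groups only.

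The test used edgeR 4.0.16 in R 4.3.3: filterByExpr by group (14571 genes), TMM scaling, 1 robust quasi-likelihood fit to all 18 libraries with a coefficient per group (9 residual degrees of freedom), and Benjamini-Hochberg adjustment over all genes tested. Adjusted p-values are from this test where no other is named. An exact permutation test of 2 libraries against 2 gives no p under 0.333, so all groups share 1 estimate of the spread. The steps were tested on simulated data. DESeq2 1.42.0, limma-voom (limma 3.58.1), other scalings and filters, and fits of the compared groups alone were alternatives. So was leaving out each library of the compared groups, and each OPM2 empty vector library in every comparison. A correction for GC content and length (GENCODE 29 transcripts) was chosen after seeing the data.

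All 10 members were tested in every comparison and each is named above, but not every member's value in every comparison is printed. Of each pathway list, at most the 4 called genes with the smallest p per comparison are named. The 5 genes most like CRBN are named too. The members and lists were chosen with earlier results of these data known. Log2 fold changes are ± SE, taken from the fold change and its F statistic. Promoter windows are RefSeq's, and log2 FPKM values were used without a test.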

Additional observations from a re-analysis of the deposited data

Results flagged for a closer look

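ZNF692 stood out because its change differed between groups in the same kind of comparison, by a test of the difference itself in edgeR. The IKZF1 knockout effect in H929 minus that in MM1S was 0.92 log2 units, and in H929 minus that in OPM2 it was 1.17 log2 units. In OPM2 the lenalidomide effect minus the IKZF1 knockout effect was 1.53 log2 units, and minus the IKZF3 knockout effect 1.51 log2 units. Both OPM2 values also hold the ZNF692 gap between their controls, empty vector cells being 0.71 log2 units above untreated cells. ZNF692 was the only one of the 10 genes called in these 4 differences with all libraries. In the order above, 15.9%, 12.7%, 0.281% and 6.6% of all genes were called. Fits of the compared groups alone called ZNF692 only in H929 minus MM1S, and limma-voom did not call it there. As given above, the first 3 differences were not firm when single libraries were left out. The last 3 use OPM2 empty vector replicate 1, in which ZNF692 was at 44.7 CPM, against 27.2 CPM in its partner. Without that library the last 3 were 0.74, 1.10 and 1.08 log2 units.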

How the results depend on the processing

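Fitting only the compared groups, with fewer libraries behind the spread, changed most counts of called members: to 1 of 10 in H929 IKZF1 knockout, 3 in MM1S, 0 in each OPM2 knockout, 4 under lenalidomide, 0 for OPM2 empty vector against untreated, 2 for the mean over lines, 2 for H929 minus MM1S, 0 for H929 minus OPM2, 0 for lenalidomide minus either knockout, and 3, 4 and 9 for H929 against OPM2, MM1S against OPM2 and H929 against MM1S. In the same order these fits called 13.3%, 55.4%, 0.929% and 0.419%, 45.4%, 0%, 24.9%, 29.5%, 0.863%, 0% and 0.213%, and 44.2%, 47.5% and 83.5% of all genes. Against untreated libraries each OPM2 knockout had 0, and CUL4B turned to -0.30 and -0.29. The GC and length correction, added after seeing the data, gave 3 in H929 (17.2% of all genes), 3 in MM1S (38.1%), 3 in the OPM2 IKZF1 knockout (31.1%; GSPT1 gained, CUL4B lost), 5 in the OPM2 IKZF3 knockout (34.3%; CRBN and GSPT1 gained, CUL4B lost), 1 under lenalidomide (16.5%) and 3 for H929 minus MM1S (24.4%), and turned CSNK1A1 in OPM2 empty vector against untreated to 0.05. Other tools gave 1 in H929 with upper quartile factors, DESeq2 and limma-voom (10.7%, 12.1% and 11.7% of all genes). DESeq2 gave 2 in MM1S (28.6%), 2 for H929 minus MM1S (18.1%) and 2 for lenalidomide minus IKZF3 knockout (18.9%). With limma-voom H929 minus MM1S had 0 (17.4%). The cause was not tested.

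Leaving out each library in turn gave 0 to 4 members called in H929, 0 to 2 in MM1S, 1 to 7 in each OPM2 knockout, 0 to 1 under lenalidomide, 1 to 7 for empty vector against untreated, 2 to 7 for the mean, 0 to 1 between the OPM2 knockouts, 0 to 3, 0 to 7 and 0 to 8 for the differences H929 minus MM1S, H929 minus OPM2 and MM1S minus OPM2, 0 to 9 and 1 to 7 for lenalidomide minus IKZF1 and IKZF3 knockout, and 4 to 8, 6 to 8 and 3 to 8 between lines (H929 against OPM2, MM1S against OPM2, H929 against MM1S). In the order of these counts, the share of all genes called ran over 4.57% to 22.2%, 15.5% to 42.3%, 20.5% to 53.4% (IKZF1) and 17% to 53.6% (IKZF3), 3.87% to 21.9%, 14.2% to 52.5%, 25% to 49.8%, 0.796% to 8.94%, 9.56% to 28.9%, 3.21% to 45.7%, 9.12% to 46.9%, 0.0669% to 44%, 0.493% to 44.9%, 54.1% to 69.3%, 56.4% to 71.4% and 51.9% to 71.1%. These ranges cover leaving out the libraries of the compared groups and the OPM2 empty vector libraries, not every library of the series. Without OPM2 empty vector replicate 2, GSPT1 in the OPM2 IKZF3 knockout turned to 0.20, and without replicate 1 it was -0.15.

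Knockout columns carry no usable numbers, so a replicate block was fitted to the control groups alone. It called 1 member for OPM2 empty vector against untreated, where 11.3% of all genes were called. Between empty vector cells it called 5 members for H929 against OPM2 (58.8% of all genes) and 6 for MM1S against OPM2 (62%). For H929 against MM1S it called 4 members (56.4%). The same-number correlations of deviations, -0.0762 to 0.123 over 14571 genes, do not show that the numbers pair libraries. Depth limits ZNF692 most, at 101 to 608 counts a library.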
